A study of Mus musculus with 20 samples.

Results

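H2-Aa, H2-Ab1, H2-Eb1, Cd74, Tyrobp, Lyz2 and Spi1 are 7 genes better known from antigen-presenting and myeloid cells than from lymphocytes. Here they were followed in thymic group 2 innate lymphoid cells (ILC2), lymphocytes that make type 2 cytokines. They were taken by gene symbol, and all 7 were found among the 9973 genes of the first count table and the 10706 genes of the second. Treatments were compared in 12 libraries from wild-type (WT) females, 3 per group: untreated mice, mice 3 days after sublethal irradiation at 425 rad, mice 3 days after 0.3 µg recombinant IL-25 (rIL-25) was placed in the thymus, and mice that received both. Genotypes were compared in 8 libraries from males, 4 with and 4 without Il25, all taken 3 days after the same 425 rad. The mice were described as young, with no age given, and no group received an injection without rIL-25, so that the cytokine and the injection cannot be told apart. The labels do not say how the Il25 knockout (KO) was made, nor whether a replicate was 1 animal, so p-values measure the spread between these samples, which may be technical.

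MHC class II molecules are pairs of an alpha and a beta chain that hold peptides from ingested protein and show them to CD4 T cells. H2-Aa and H2-Ab1 encode the alpha and beta chains of I-A, and H2-Eb1 the beta chain of I-E. Cd74 encodes the invariant chain, which fills the groove of new class II molecules until they reach the endosome. Dendritic cells, macrophages, B cells and thymic epithelial cells carry class II constitutively, and ILC2 of several tissues have been found to carry it too. Tyrobp encodes DAP12, an adaptor with an ITAM motif that couples activating receptors to the kinase Syk. Lyz2 encodes a lysozyme of macrophages and granulocytes, and Spi1 encodes PU.1, a transcription factor of myeloid and B cell development.

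In mm10, H2-Ab1 lies on the plus strand at chr17:34263227-34269418, H2-Aa on the minus strand at chr17:34282744-34287823 and H2-Eb1 on the plus strand at chr17:34305867-34316674. Tyrobp lies at chr7:30413782-30417582 and Spi1 at chr2:91082374-91115759, both on the plus strand, and Lyz2 on the minus strand at chr10:117277541-117282272. An antisense gene, Gm20513, overlaps H2-Eb1, and the sources used here do not say whether counting used strand, so its reads cannot be told apart from those of H2-Eb1. Class II genes are known to be controlled through a promoter module of X and Y boxes, and PU.1 is known to bind sites with a GGAA core. RefSeq promoters (GRCm38.p6) were at hand for 3 of the 7 genes, and the 150 bases before each start are shown because they hold these letters. Capitals mark the X box core GCAAC, the Y box core GATTGG and the PU.1 core AGGAAGT, on either strand, so that the Y core can read CCAATC.
H2-Aa (chr17:34287824-34287973, minus strand): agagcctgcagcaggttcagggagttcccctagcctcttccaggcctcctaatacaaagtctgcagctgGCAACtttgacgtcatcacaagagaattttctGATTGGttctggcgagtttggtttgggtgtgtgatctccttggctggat
H2-Eb1 (chr17:34305717-34305866, plus strand): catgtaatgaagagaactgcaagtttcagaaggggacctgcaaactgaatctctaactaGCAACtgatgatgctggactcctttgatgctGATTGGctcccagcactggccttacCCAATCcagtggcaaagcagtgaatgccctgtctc
Lyz2 (chr10:117282273-117282422, minus strand): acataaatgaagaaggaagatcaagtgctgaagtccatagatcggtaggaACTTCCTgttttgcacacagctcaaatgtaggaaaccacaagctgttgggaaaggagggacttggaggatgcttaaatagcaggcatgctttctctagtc
The X core stood 27 bases before the Y core in H2-Aa and 26 bases before it in H2-Eb1. Both strands of 32851 promoters of the same length were searched with these letters, which were chosen after the promoters had been read. GCAAC occurred in 19.6% of them, GATTGG in 10.9% and AGGAAGT in 5.07%. An X core 10 to 40 bases before a Y core on the same strand occurred in 109, or 0.332%. These matches describe letters and are not binding sites.

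Total counts were 495079 to 1460702 per library in the treatment experiment and 2093288 to 4420831 in the knockout experiment. A single count was therefore worth 0.676 to 2.23 CPM (counts scaled to a common library size) in the first and 0.205 to 0.525 CPM in the second. Il25, the targeted gene, had 3, 7, 17 and 10 counts in the WT libraries of the knockout experiment and 0 in each of the 4 KO libraries. The ILC2 genes Gata3, Il7r and Il17rb had counts in all 20 libraries. Il1rl1, the IL-33 receptor, had 0, 0 and 3 counts in the untreated libraries. In bulk libraries, fewer cells of a type and less RNA per cell cannot be told apart, and a few cells of another type cannot be told apart from a low level in every cell. The third rIL-25 library stood apart from all others in the genes described here, so results are given with and without it. The 3 comparisons with untreated mice share the same 3 control libraries.

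In untreated mice H2-Aa, H2-Eb1 and Cd74 had 0 to 5 counts per library, and in treated mice they were higher in most libraries, by amounts that differed from library to library. H2-Aa had 2, 5 and 2 counts in replicates 1 to 3 of the untreated group, 5, 9 and 22 after irradiation, 4, 17 and 285 with rIL-25 alone, and 24, 16 and 20 with both. The last rIL-25 library held far more than any other, and every library given both treatments held more than every untreated one. H2-Eb1 had 0, 2 and 1 counts untreated, 4, 1 and 13 after irradiation, 4, 6 and 164 with rIL-25 alone, and 12, 10 and 28 with both. Cd74, at chr18:60803849-60812652 on the plus strand, had 1, 1 and 1 counts untreated, 1, 12 and 18 after irradiation, 4, 8 and 86 with rIL-25 alone, and 33, 15 and 45 with both. For both genes the doubly treated libraries lay together above the untreated ones, while the irradiated group held a library close to the untreated level. In CPM that separation of doubly treated from untreated libraries, also seen for H2-Aa, held for 13.5% of all genes tested. Replicates 1 and 2 of the rIL-25 group stood at 4.06 to 5.45 CPM for H2-Eb1 and Cd74, against at most 2.81 CPM untreated. H2-Ab1 stood at a higher count from the start, with 15, 27 and 20 counts untreated. It had 30, 18 and 33 after irradiation, 37, 41 and 245 with rIL-25 alone, and 15, 26 and 35 with both. Apart from the third rIL-25 library, the groups of H2-Ab1 overlapped.

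**Figure D1:**
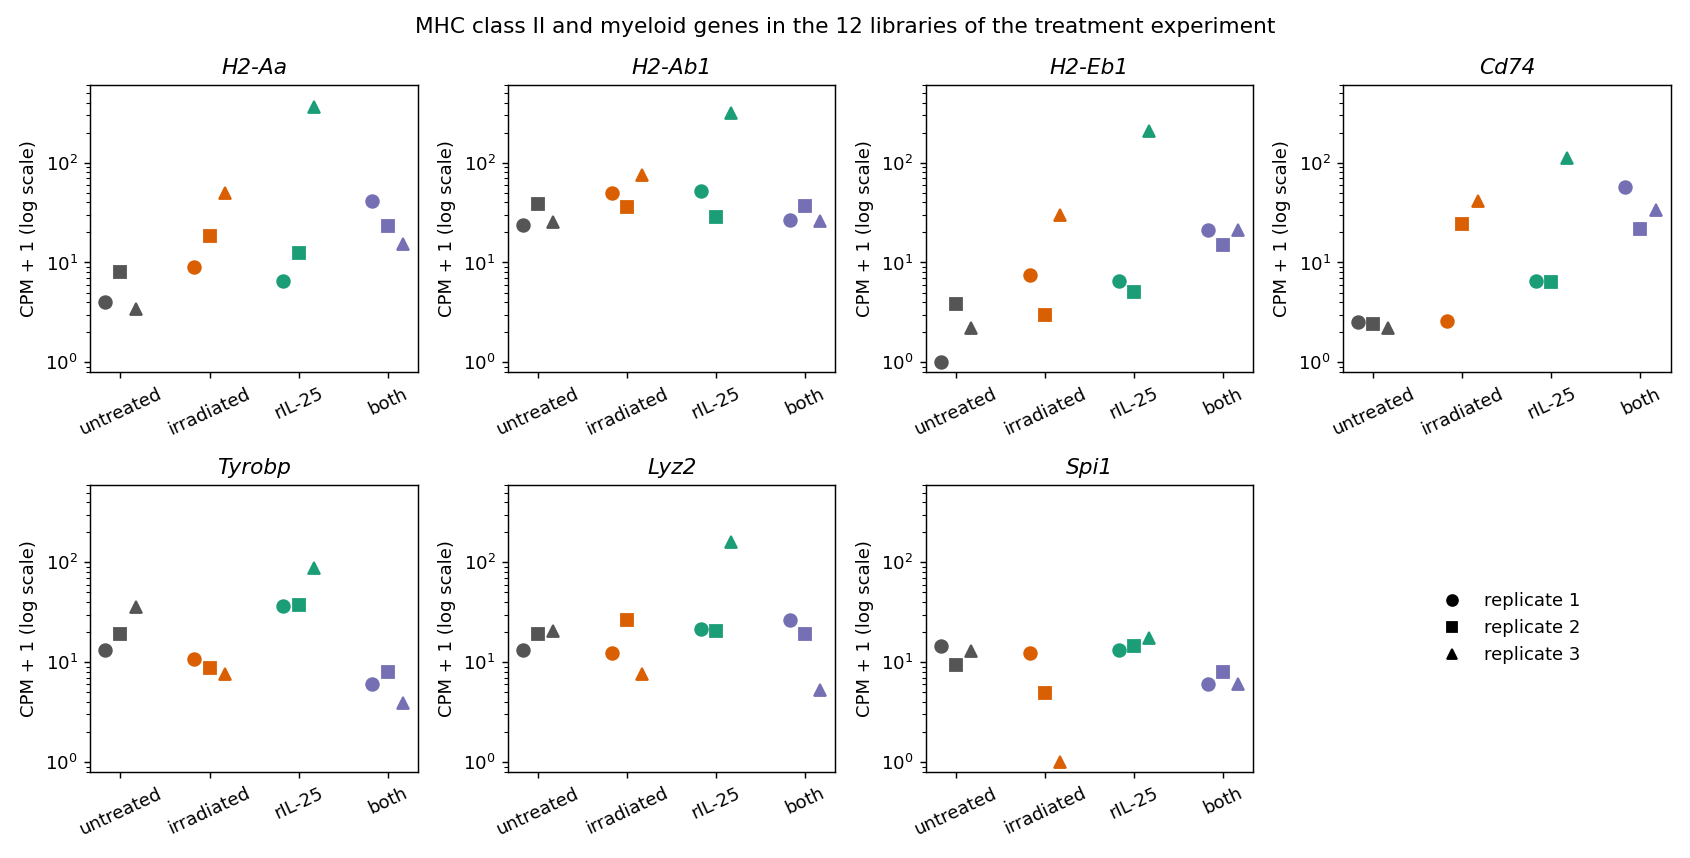
CPM + 1 on a log scale for the 7 genes in the 12 libraries of the treatment experiment, with a colour for each group and a marker shape for each replicate number. The triangle of the rIL-25 group is the highest point in every panel, from 16.5 CPM for Spi1 to 362 CPM for H2-Aa, and the Tyrobp points of both irradiated groups lie below all others.

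After irradiation alone none of the class II genes was called by edgeR's quasi-likelihood test (called means a Benjamini-Hochberg adjusted p under 0.05). H2-Aa stood at 24.9 ± 21.4 CPM against 4.16 ± 2.499 CPM in untreated mice (SD, n = 3 per group), a log2 fold change of 2.48 ± 1.48 (SE) with an edgeR adjusted p of 0.394. Cd74 stood at 21.7 ± 19.3 against 1.38 ± 0.156 CPM, a ratio of counts per total of 12.9 (exact 95% interval 4.04 to 66.2, counting error only) and an edgeR adjusted p of 0.145. In CPM, for both genes but not for H2-Ab1 or H2-Eb1, each irradiated library was above each untreated one, which also held for 11.9% of all genes tested. The counts themselves met. Cd74 had 1 count in irradiated replicate 1 and 1 in each untreated library, and H2-Aa had 5 in irradiated replicate 1 and 5 in untreated replicate 2. Of the 6 tested members 0 were called, beside 4.02% of 7482 genes. Of them 2 had an unadjusted p under 0.05 in edgeR, beside 1415 of 7482 genes. DESeq2 called 0 members, but gave no adjusted p for H2-Aa and H2-Eb1. Without the third rIL-25 library, which entered this comparison only through the shared estimate of spread, edgeR called H2-Aa at 2.49 (adjusted p = 0.0422) and Cd74 at 3.77 (adjusted p = 0.0158). That library was set apart by its values in these same genes, so the calls without it are no independent evidence. Fits without 1 library called 86 to 370 of all genes in this comparison.

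After both treatments Cd74 rose, to 36.3 ± 17.8 CPM, a log2 fold change of 4.55 ± 1.26 with an edgeR adjusted p of 0.0259. Its ratio of counts per total against untreated mice was 24.5, with an exact 95% interval of 8.12 to 121. H2-Eb1 stood at 18.1 ± 3.65 CPM against 1.34 ± 1.41 CPM, a ratio of 13.2 (4.25 to 65.9), and was not called (edgeR adjusted p = 0.166). H2-Aa stood at 25.7 ± 13.5 CPM with an edgeR adjusted p of 0.284, and H2-Ab1 at 28.8 ± 6.24 against 28.3 ± 8.37 CPM, a log2 difference of 0.01 ± 0.67. In all, 1 tested member rose and 1, Tyrobp, fell, beside 8.93% of genes called in either direction, 4.22% higher and 4.7% lower. The call of Cd74 was lost in 5 of the 12 fits that left out 1 library, at adjusted p up to 0.0949: without untreated replicate 1, 2 or 3 or doubly treated replicate 1 or 3. Without the third rIL-25 library 4 members were called, since H2-Aa (2.52, adjusted p = 0.0186) and H2-Eb1 (3.59, adjusted p = 0.00834) then passed too. The library was set apart by its values in these same genes, so the added calls are no independent evidence. Fits without 1 library called 271 to 896 of all genes in this comparison.

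After rIL-25 alone the class II genes had their highest group means and no calls. H2-Aa averaged 126 ± 204 CPM, H2-Ab1 130 ± 158 CPM, H2-Eb1 72.7 ± 118 CPM and Cd74 40.1 ± 60.0 CPM, each with an SD above its mean. The log2 fold change of H2-Aa was 4.85 ± 1.18 with an edgeR adjusted p of 0.932, and that of H2-Eb1 5.53 ± 1.35 with the same adjusted p. Of the 6 tested members 0 were called, beside 0% of 7482 genes. For 4 members, H2-Eb1, Cd74, Tyrobp and Lyz2, every rIL-25 library was above every untreated one, as for 5.57% of genes. All 6 had an unadjusted p under 0.05, as had 336 genes in the whole table. DESeq2 called 0 members as well, but gave no adjusted p for H2-Aa and H2-Eb1. In the authors' deposited table the adjusted p of H2-Aa was 0.0498 and that of H2-Eb1 0.0582.

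The third rIL-25 library carried most of this signal. It held 95.6% of the group's CPM of H2-Eb1, 95.5% of H2-Aa, 91.0% of Cd74, 79.9% of H2-Ab1 and 79.7% of Lyz2, where the median gene had 39.2% in its highest rIL-25 library. Only 52 of 7481 genes, or 0.695%, had more than 75% of the group's CPM in 1 library. It was also the highest of all 12 libraries for each of the 7 genes, as for 545 genes or 7.28% of all tested. Its level was 7.39 times that of the next highest library for H2-Aa, 7.19 times for H2-Eb1, 6.20 times for Lyz2 and 4.23 times for H2-Ab1. The step was smaller for Tyrobp at 2.37 times, Cd74 at 1.96 times and Spi1 at 1.21 times.

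**Figure D2:**
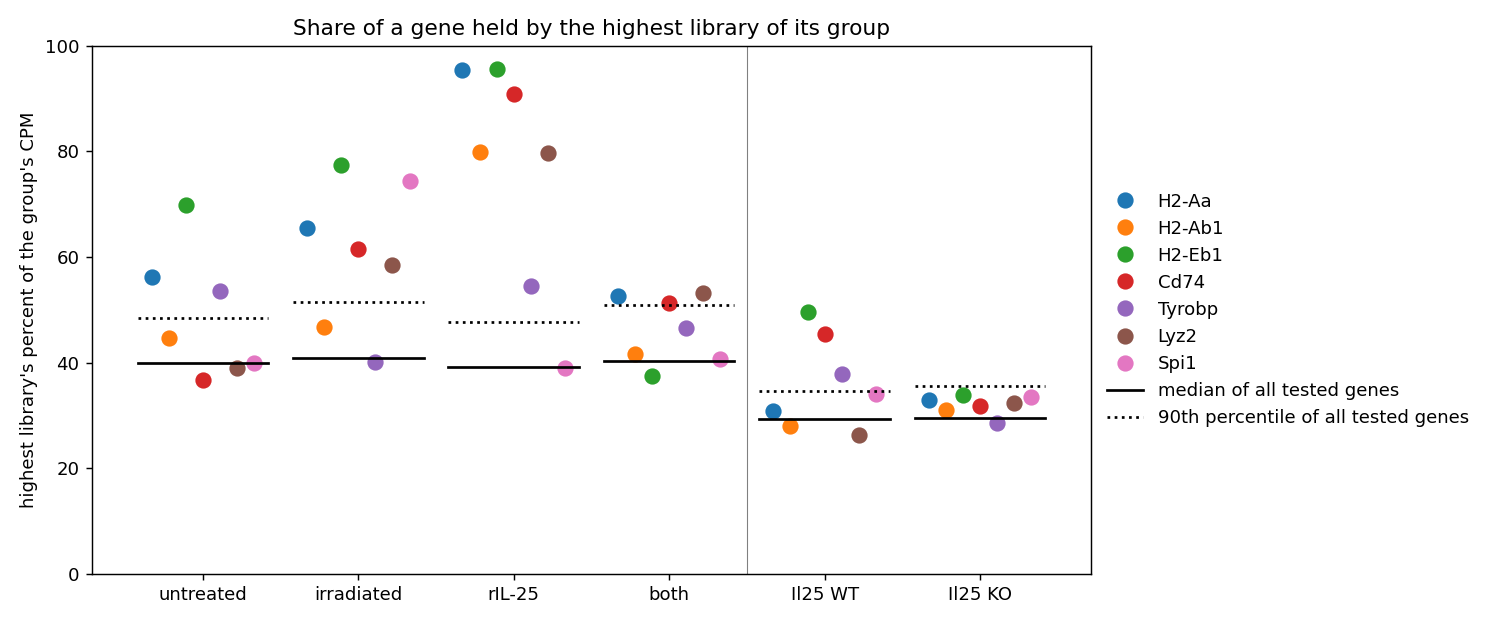
Percent of a group's summed CPM that lay in its highest library, for the 7 genes in each of the 6 groups. The solid line is the median and the dotted line the 90th percentile of all tested genes, and 5 of the 7 genes reach 79.7% or more in the rIL-25 group.

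Without that library the fold changes after rIL-25 shrank. The log2 fold change went from 4.85 to 1.115 for H2-Aa, from 5.53 to 1.64 for H2-Eb1, from 4.65 to 1.87 for Cd74 and from 2.16 to 0.41 for H2-Ab1, all with an adjusted p of 1 in edgeR. From the remaining pair of libraries the ratio of counts per total was 2.26 (exact 95% interval 0.991 to 5.60) for H2-Aa, 3.22 (0.830 to 18.2) for H2-Eb1 and 3.87 (1.04 to 21.4) for Cd74. Of these intervals only that of Cd74 lay above 1, which covers counting error alone. In the opposite direction, leaving out the second rIL-25 library brought H2-Aa, H2-Ab1 and H2-Eb1 under the threshold (edgeR adjusted p = 0.0374 each).

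**Figure D3:**
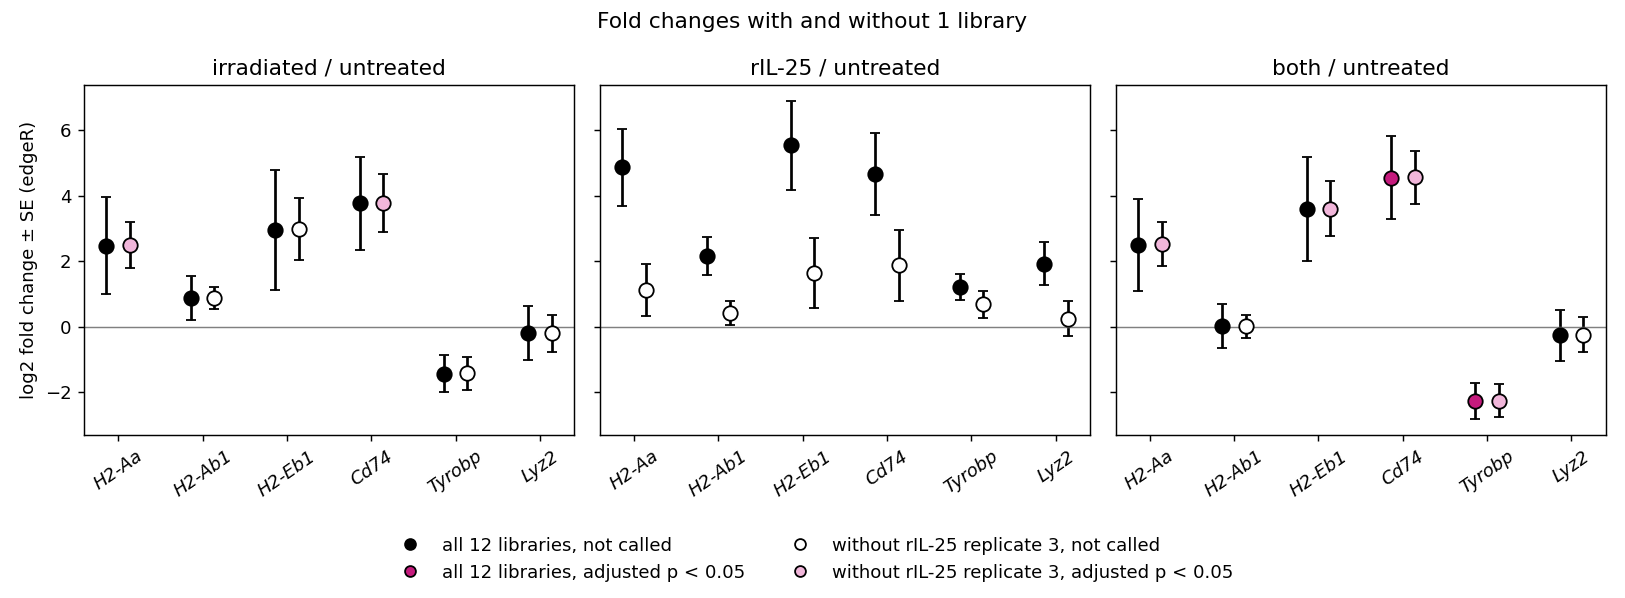
Log2 fold change ± SE against untreated mice from edgeR for the 6 tested genes, with all 12 libraries (filled) and without the third rIL-25 library (open or pale), coloured where the adjusted p was under 0.05. Leaving it out moves H2-Aa from 4.85 to 1.115 in the rIL-25 panel, hardly moves the values in the panels on either side, and shortens their error bars.

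Much of the comparison of both treatments with rIL-25 alone depended on the same library. With it, H2-Ab1 was lower in doubly treated mice by -2.15 ± 0.58 on the log2 scale (edgeR adjusted p = 0.0165) and Lyz2 by -2.18 ± 0.67 (adjusted p = 0.0312). Tyrobp was lower as well, so that 3 members were called lower and 0 higher, beside 15.3% of genes called, 8.75% lower and 6.51% higher. H2-Aa at -2.36 (adjusted p = 0.0714), H2-Eb1 at -1.94 (0.135) and Cd74 at -0.10 (0.942) were not called by edgeR. Without it the signs of these last 3 turned, to 1.40 for H2-Aa (adjusted p = 0.141), 1.95 for H2-Eb1 (0.0799) and 2.68 for Cd74, which was then called as higher (0.0116). H2-Ab1 went to -0.40 (0.519) and Lyz2 to -0.49 (0.604), both no longer called. The calls of H2-Ab1 and Lyz2 were also lost without doubly treated replicate 3. That of Tyrobp held in each of the 12 fits without 1 library. None of the 6 tested members was called between both treatments and irradiation alone, beside 2.51% of genes. Of them 0 had an unadjusted p under 0.05 in edgeR, beside 1263 of 7482 genes, and DESeq2 called 0. None was called for the interaction either, beside 2.07%. There 5 had an unadjusted p under 0.05 in edgeR, beside 1277 of 7482 genes, and DESeq2 called 0. DESeq2 gave no adjusted p for H2-Aa and H2-Eb1 in either comparison. The lowest interaction p was that of H2-Ab1, at -3.02 ± 0.88 (edgeR adjusted p = 0.0755), which came to -3.49 (adjusted p = 0.0105) without the second rIL-25 library.

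Genes of other cell types were high in the third rIL-25 library too. Of the 9 macrophage and monocyte genes in the table that are not members, 7 were highest there, and 6 had more than 50% of their CPM over the 12 libraries in it. The complement genes C1qa and C1qb had 40 and 41 counts there and at most 3 in any other library, and the receptor gene Csf1r had 9 and at most 2. Of 11 dendritic cell genes, 5 were highest there. The chemokine gene Ccl17 had 49 counts there and 0 in each of the other 11 libraries, and Plbd1 had 24 and at most 2. The summed level of the macrophage list was 285 to 519 CPM in the rIL-25 group, 362 to 399 CPM untreated, 254 to 365 CPM after irradiation and 338 to 427 CPM after both. Most of it lay in Ctsd, which averaged 306, 366, 272 and 351 CPM in the same order. The summed level of the dendritic cell list was 622 to 1181 CPM after rIL-25, 573 to 643 CPM untreated, 573 to 589 CPM after irradiation and 562 to 684 CPM after both. Csf1r, Fcgr3, C1qa and C1qb were at 0 in every untreated library, as were the dendritic cell genes Cd83, Plbd1 and Ccl17. These 7 genes are named after their values were seen. Thymic epithelial genes summed to 31.3 to 125 CPM after rIL-25 and 27.3 to 37.9 CPM untreated, with their highest value in the same library, and to 17.8 to 66.6 CPM after irradiation and 45.9 to 82.8 CPM after both. The part of such cells in the class II values was not tested.

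The makeup of the class II counts also differed between groups. These are 3′ tag counts, not divided by length, so each gene's share is compared between libraries and not with the share of another gene. H2-Ab1 made up 80.5% of the 77 class II counts of untreated mice (Wilson 95% interval 70.3 to 87.8), 48.8% after irradiation (41.3 to 56.3), 35.8% after rIL-25 (32.8 to 39.0) and 27.2% after both (22.4 to 32.7). The irradiated libraries, replicates 1 to 3, had 75%, 45% and 38.4%. The interval of that group covers counting error and not this spread between libraries. The rIL-25 libraries had 75.5%, 56.9% and 31.4%, and without the third the group's share was 64.5% (55.6 to 72.4). By library H2-Ab1 ranged from 77.1% to 83.3% untreated and from 17.9% to 38.8% after both, so these groups did not overlap. Irradiated replicate 1 lay just below the untreated libraries, and irradiated replicate 3 within the range after both. Cd74 went the other way, from 3.90% of the counts in untreated mice (1.33 to 10.8) to 33.3% after both (28.1 to 39.1). In the third rIL-25 library Cd74 was 11.03% and H2-Aa 36.5% of the counts. There the Cd74 share was below that of each doubly treated library, the lowest of which had 22.4%. No test of these shares across replicates was run.

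**Figure D4:**
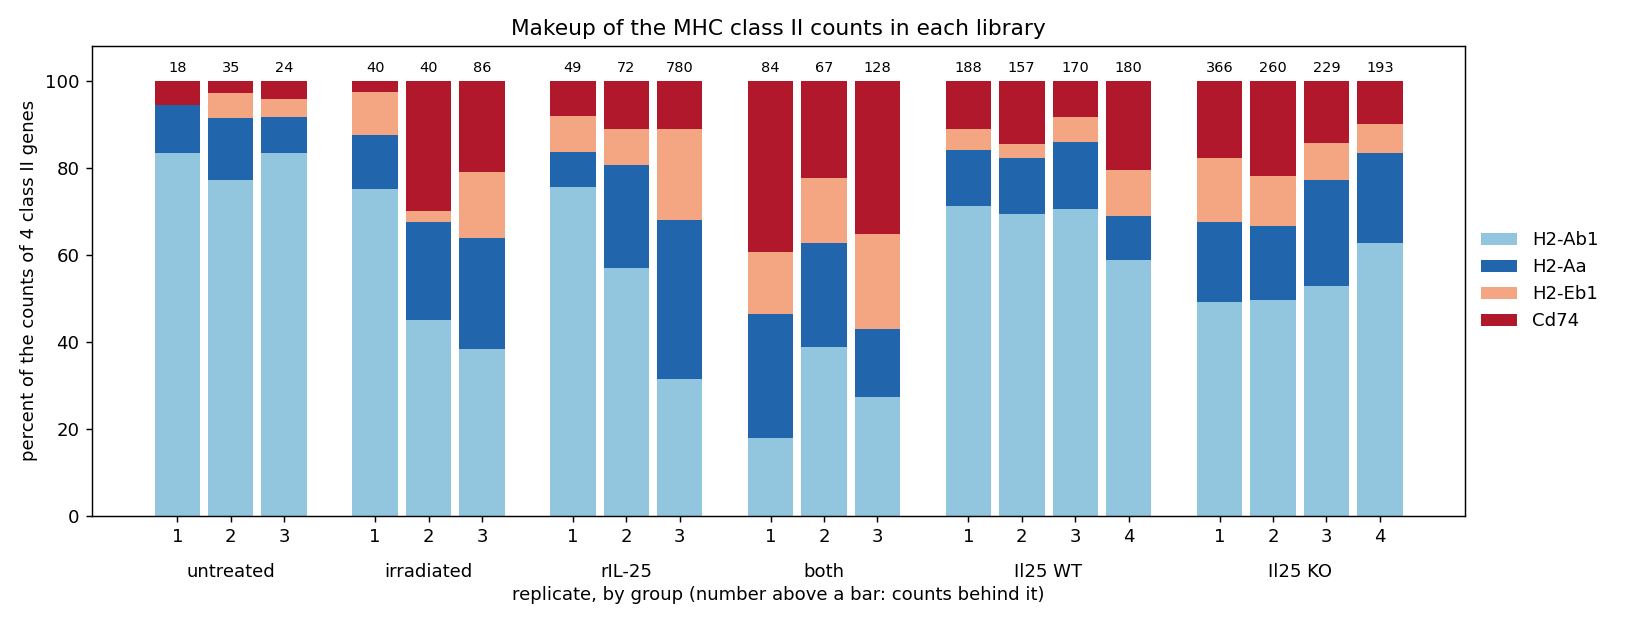
Percent of the summed counts of H2-Ab1, H2-Aa, H2-Eb1 and Cd74 contributed by each gene in each of the 20 libraries, with the number of counts above each bar. The H2-Ab1 part takes 77.1% to 83.3% of the untreated bars and 17.9% to 38.8% of the doubly treated ones, and the third rIL-25 bar rests on 780 counts.

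Tyrobp, Lyz2 and Spi1 shared their highest library with the class II genes. Tyrobp had 8, 13 and 29 counts untreated, 6, 4 and 3 after irradiation, 26, 54 and 68 with rIL-25 alone, and 3, 5 and 4 with both. All 6 irradiated libraries, at most 9.73 CPM, were below all 6 that were not irradiated, at least 12.2 CPM, as for 2.67% of genes tested. Tyrobp fell after both treatments, to 4.95 ± 2.03 from 21.8 ± 11.9 CPM (log2 fold change -2.25 ± 0.55, edgeR adjusted p = 0.0125). That call was lost without untreated replicate 3 (0.104) or doubly treated replicate 3 (0.113). Against rIL-25 alone the difference was -3.47 ± 0.50 (edgeR adjusted p = 0.000168), called in each of the 12 fits that left out 1 library. After irradiation alone Tyrobp was at 8.08 ± 1.54 CPM and not called (-1.42, edgeR adjusted p = 0.155), although each irradiated library was below each untreated one, as for 10.9% of genes. The doubly treated libraries of Tyrobp and of Spi1 were also all below the rIL-25 ones, as for 17.4% of genes.

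Lyz2 had 8, 13 and 16 counts untreated, 7, 13 and 3 after irradiation, 15, 29 and 124 with rIL-25 alone, and 15, 13 and 6 with both. Its groups overlapped, except that the lowest rIL-25 library, at 19.6 CPM, was just above the highest untreated one at 19.4 CPM, and below the highest irradiated and doubly treated ones at 25.4 and 25.3 CPM. It was not called against untreated mice after any treatment, with edgeR adjusted p of 0.930, 0.999 and 0.879 after irradiation, rIL-25 and both. Spi1 had 9, 6 and 10 counts untreated, 7, 2 and 0 after irradiation, 9, 20 and 13 with rIL-25 alone, and 3, 5 and 7 with both. Its doubly treated libraries, at most 6.93 CPM, were below the untreated ones, at least 8.43 CPM, as were those of 13.5% of the genes tested. Spi1 did not pass the filter on low counts and was not tested there.

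Of 15 other genes of signalling adaptors and the ITAM pathway, 9 were in the table and 5 passed the filter. After irradiation 1 of these rose and 1 fell, beside 4.02% of all genes called in either direction. Hcst, the gene of the adaptor DAP10, rose from 91.1 ± 8.81 to 175 ± 15.4 CPM (edgeR adjusted p = 0.0216). Plcg2, a phospholipase downstream of ITAM receptors, fell from 66.7 ± 20.1 to 32.0 ± 7.32 CPM (adjusted p = 0.0409) and to 23.5 ± 1.92 CPM after both treatments (0.00167). The calls after irradiation were lost in 5 of 12 fits without 1 library for Hcst and in 4 of 12 for Plcg2, at adjusted p up to 0.247. Fcer1g, an ITAM adaptor gene that did not pass the filter and is named after its values were seen, had 2, 2 and 11 counts untreated, 3, 2 and 0 after irradiation, 12, 16 and 20 with rIL-25 alone, and 5, 7 and 7 with both. Among myeloid transcription factors Runx1 fell, from 400 ± 30.2 to 196 ± 69.5 CPM after irradiation (adjusted p = 0.0230) and to 182 ± 64.9 CPM after both (0.00540), calls lost in 4 of 12 fits without 1 library and without doubly treated replicate 3 (0.0502). It was 1 of 6 tested genes of that list, of which 1 other, Id2, rose after irradiation, and Id2 and Cebpb rose after both. Of the early progenitor list 5 of 6 tested genes fell after irradiation and 5 of 6 after both. The list summed to 506 to 771 CPM untreated and 105 to 184 CPM after irradiation. It summed to 530 to 729 CPM after rIL-25 and 78.9 to 190 CPM after both. A large part of these sums lay in 1 gene, Cpa3, which averaged 298, 49.7, 325 and 25.5 CPM in the same order. Tyrobp was thus low in the same libraries as the progenitor genes, and the part of such cells in its values was not tested.

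Genes that process antigen for class II were measured as well, and some of them rose in irradiated mice. Of 16 such genes that are not members, 11 were in the table and 8 passed the filter, and 4 rose and 0 fell after both treatments. Ctss, a protease that cuts the invariant chain, rose from 8.54 ± 2.68 to 84.0 ± 12.3 CPM (9.68-fold, edgeR adjusted p = 0.00608) and was called in each of the 12 fits without 1 library. Lgmn, an endosomal protease, rose from 4.63 ± 3.31 to 39.3 ± 25.6 CPM (8.78-fold, adjusted p = 0.00828), a call lost without untreated replicate 3 or doubly treated replicate 3 (adjusted p up to 0.117). Ifi30, a reductase of antigen disulfides, rose from 16.9 ± 8.60 to 52.2 ± 7.37 CPM (adjusted p = 0.00767), and H2-Oa, a chain of the regulator DO, from 21.3 ± 3.90 to 50.4 ± 17.5 CPM (0.0337, lost in 5 of 12 such fits). H2-Ob, the gene of the other DO chain, did not pass the filter and is named after its values were seen. It had 4, 3 and 9 counts untreated, 1, 0 and 0 after irradiation, 11, 9 and 6 with rIL-25 alone, and 0, 0 and 0 with both. After irradiation alone Ifi30 stood at 48.7 ± 10.7 CPM and H2-Oa at 45.1 ± 8.18 CPM, and Lgmn was the only one of the 8 called between both treatments and irradiation (7.91-fold, edgeR adjusted p = 0.0385, lost in 4 of 12 such fits). The median log2 fold change of the 8 genes after both treatments was 0.91, against -0.01 over all genes.

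After irradiation alone 1 of the 8 class II processing genes rose, Ifi30 (2.84-fold, edgeR adjusted p = 0.0307, lost in 4 of 12 fits without 1 library), and after rIL-25 alone 0 did, with a median log2 fold change of 0.23 and 0.15. The third rIL-25 library held more than 50% of the 12-library CPM for 0 of the 11 processing genes and was the highest for 1. On that 12-library measure it held 66.7% for H2-Aa and 66.5% for H2-Eb1. For Lyz2 it held 46.6%, for H2-Ab1 43.4%, for Cd74 36.6%, for Tyrobp 32.9% and for Spi1 15.2%. Most members were thus under 50% too. Ctss had 2, 8 and 60 counts in the rIL-25 libraries and 46, 55 and 137 in the doubly treated ones. Of 15 tested class I genes, which most cells express, 4 rose after both treatments (H2-K1, H2-D1, H2-T23 and their transactivator Nlrc5) and 1 after irradiation (Nlrc5, 3.15-fold, edgeR adjusted p = 0.0138). T cell and thymocyte genes were also higher in both irradiated groups. Of 9 tested, 3 rose after irradiation and 4 after both, and their summed level was 1361 to 1847 CPM untreated, 2443 to 2795 CPM after irradiation, 1465 to 1573 CPM after rIL-25 and 2351 to 2525 CPM after both. B cell genes could be followed only through Cd79b and Ly6d, which both fell after irradiation, the first in a call lost in 6 of 12 fits without 1 library (edgeR adjusted p up to 0.145). Natural killer (NK) cell and ILC1 genes summed to 565 to 684 CPM untreated, 1036 to 1357 CPM after irradiation, 591 to 696 CPM after rIL-25 and 760 to 1037 CPM after both. Of 3 tested, 1 rose after irradiation, Gzma, from 367 ± 55.6 to 966 ± 164 CPM. After both treatments Gzma rose and Nkg7 fell, calls kept in 10 and 11 of 12 fits without 1 library. Of 13 tested ILC2 genes 7 rose after both treatments. The part of these cells in the class II values was not tested.

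In the knockout experiment the class II genes were higher without Il25. The highest KO library held 28.5% to 33.9% of that group's CPM across the 7 genes, where the median gene had 29.5%. H2-Aa had 24, 20, 26 and 18 counts in WT replicates 1 to 4 and 67, 44, 56 and 40 in KO replicates 1 to 4. It rose from 5.73 ± 1.24 to 19.3 ± 4.89 CPM (SD, n = 4 per group), 3.33-fold, a log2 fold change of 1.73 ± 0.24 with an edgeR adjusted p of 0.000564. Every KO library was above every WT library, and the call held in each of the 8 fits that left out 1 library (highest adjusted p 0.00331). H2-Eb1 had 9, 5, 10 and 19 counts in WT and 54, 30, 19 and 13 in KO mice, and rose from 2.99 ± 2.09 to 9.61 ± 2.62 CPM (3.502-fold, edgeR adjusted p = 0.0166). In CPM the KO libraries of H2-Eb1 did not overlap with the WT libraries, although KO replicate 4 had 13 counts and WT replicate 4 had 19, at totals of 2093288 and 3201179. H2-Ab1 had 134, 109, 120 and 106 counts in WT and 180, 129, 121 and 121 in KO mice, and rose from 30.6 ± 5.56 to 51.2 ± 9.88 CPM (1.66-fold, edgeR adjusted p = 0.0342). Cd74 had 21, 23, 14 and 37 counts in WT and 65, 57, 33 and 19 in KO mice, and rose from 6.36 ± 3.52 to 14.9 ± 3.72 CPM (2.45-fold, edgeR adjusted p = 0.0355). For Cd74 the groups overlapped, since WT replicate 4 at 11.6 CPM lay above KO replicate 4 at 9.97 CPM.

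**Figure D5:**
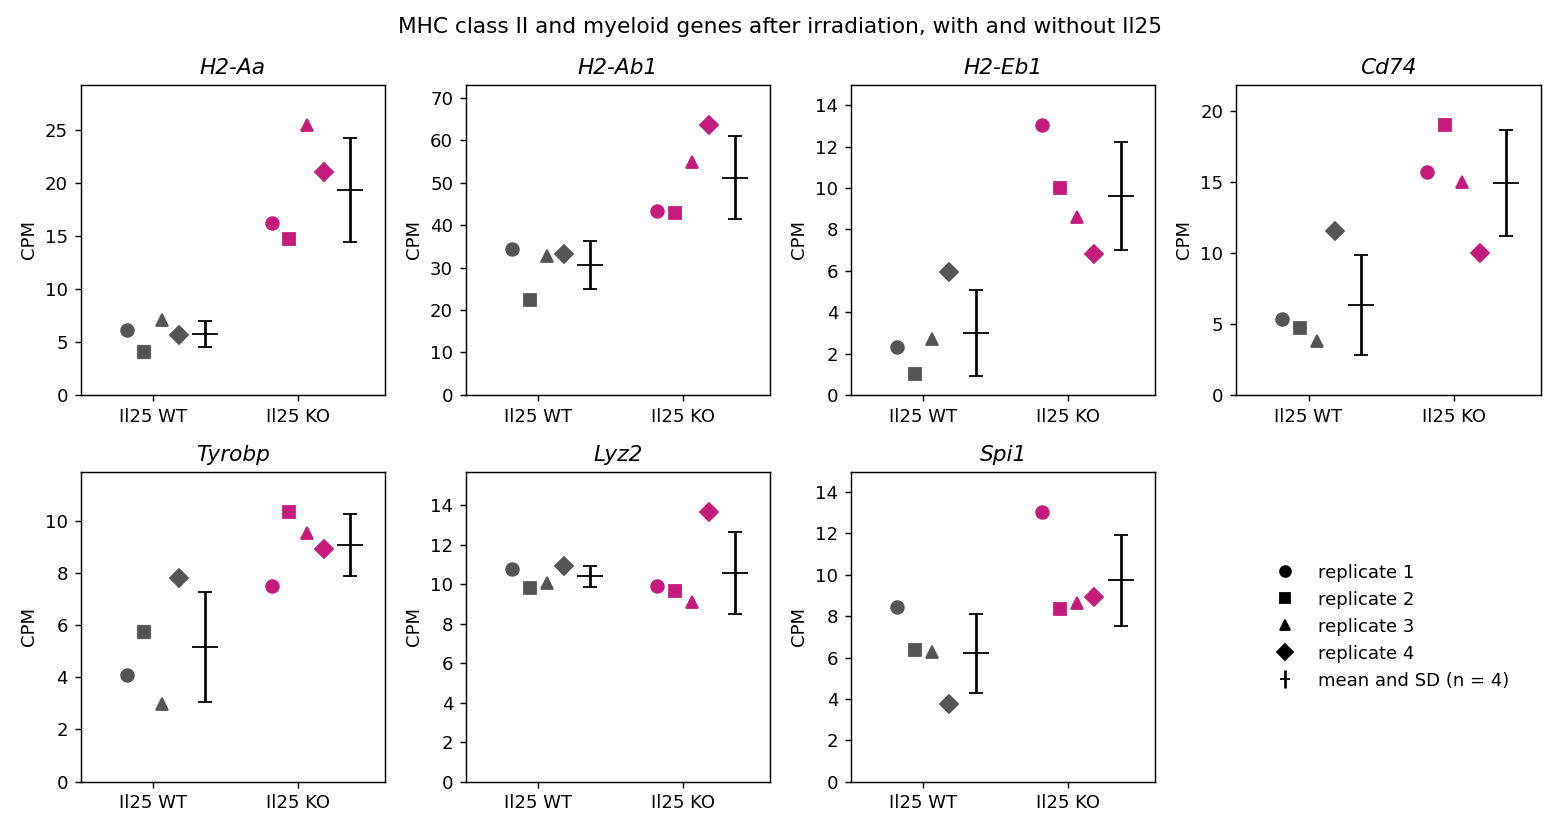
CPM of the 7 genes in the 4 Il25 WT and 4 Il25 KO libraries, all from irradiated mice, with the mean and SD of each group beside the points. The KO points of H2-Aa, at 14.7 to 25.4 CPM, lie clear of the WT points at 4.09 to 7.06 CPM, and those of Lyz2 overlap.

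All 7 members passed the filter in this experiment, and 4 rose and 0 fell, beside 1.57% of 8812 genes called higher and 0.204% called lower. DESeq2 called these 4 as well. In either direction 1.77% of genes were called. For 3 members, H2-Aa, H2-Ab1 and H2-Eb1, every KO library was above every WT library, as for 4.21% of genes. The calls other than that of H2-Aa depended on single libraries. Leaving out 1 library in turn kept 3 of 8 for H2-Ab1 (highest edgeR adjusted p 0.112), 4 of 8 for H2-Eb1 (0.0705) and 2 of 8 for Cd74 (0.126). Without WT replicate 4 each of the 4 was called, and without WT replicate 1, 2 or 3 only H2-Aa was. Tyrobp, with 16, 28, 11 and 25 counts in WT and 31, 31, 21 and 17 in KO mice, was at 5.15 ± 2.10 and 9.06 ± 1.20 CPM and not called (edgeR adjusted p = 0.228). Spi1, with 33, 31, 23 and 12 counts in WT and 54, 25, 19 and 17 in KO mice, was at 6.19 ± 1.92 and 9.72 ± 2.22 CPM (0.310). Lyz2, with 42, 48, 37 and 35 counts in WT and 41, 29, 20 and 26 in KO mice, was at 10.4 ± 0.536 and 10.6 ± 2.08 CPM (0.996). The Tyrobp and Spi1 groups met at their edges and those of Lyz2 lay on top of each other.

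The summed class II level was 48.1, 32.1, 46.2 and 56.2 CPM in the WT libraries and 88.3, 86.6, 104 and 101 CPM in the KO libraries. H2-Ab1 made up 67.5% of the class II counts in WT (Wilson 95% interval 63.9 to 70.9) and 52.6% in KO mice (49.5 to 55.6), and H2-Aa 12.7% (10.4 to 15.3) and 19.8% (17.5 to 22.3). By library the H2-Ab1 share was 58.9% to 71.3% in WT and 49.2% to 62.7% in KO mice, so the groups overlapped.

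Of 9 tested class II processing genes 1 rose without Il25. This was Ctss, from 25.9 ± 5.87 to 45.0 ± 7.32 CPM (1.74-fold, edgeR adjusted p = 0.0227), called in 3 of 8 fits without 1 library. Of 17 tested class I genes 0 were called, nor were any of 21 interferon response genes, and the summed interferon level was 2035 to 2491 CPM in WT and 2086 to 2518 CPM in KO mice. Of 20 macrophage and monocyte genes that are not members only 4 were in the knockout table, and of 21 dendritic cell genes 9. Csf1r, Fcgr3, C1qa, C1qb and Ccl17 were not in it. None of 3 tested macrophage and monocyte genes and 7 tested dendritic cell genes was called. Their summed levels were 208 to 252 and 248 to 277 CPM for the first list and 744 to 930 and 717 to 1005 CPM for the second, in WT and KO mice. Most of the first sum lay in Ctsd, at means of 216 CPM in WT and 243 CPM in KO mice. Most of the second lay in Bst2, at means of 607 and 548 CPM. Both genes are named after their values were seen. Of 6 tested thymic epithelial genes, cells that also carry class II, 3 rose. Krt8, a keratin, rose from 4.76 ± 2.96 to 23.2 ± 7.59 CPM (edgeR adjusted p = 0.00330), and its call held in each of the 8 fits without 1 library. Krt18, its partner keratin, rose from 13.8 ± 8.47 to 36.6 ± 7.32 CPM (adjusted p = 0.0166), and Trpm5, a tuft cell channel, from 2.98 ± 2.19 to 9.63 ± 2.03 CPM (0.0470), calls kept in 5 and in 2 of the 8 fits. The epithelial list summed to 23.5 to 61.2 CPM in WT and 72.3 to 115 CPM in KO mice, groups that did not overlap. Of 4 tested genes of ILC3, a lymphoid relative of ILC2, 2 rose, the cytokine genes Il17a (3.11 ± 2.49 to 15.7 ± 4.77 CPM, edgeR adjusted p = 0.00251) and Il22 (3.38 ± 2.04 to 13.3 ± 2.96 CPM, 0.00466), each called in all 8 fits without 1 library. The ILC3 list summed to 10.8 to 22.5 CPM in WT and 42.6 to 53.6 CPM in KO mice, which did not overlap. Of 4 tested NK cell and ILC1 genes 1 rose, the granzyme gene Gzmb (39.6 ± 12.7 to 110.4 ± 29.3 CPM, adjusted p = 0.00106, called in all 8), and that list summed to 768 to 954 CPM in WT and 712 to 1208 CPM in KO mice. Genes of early progenitors had 0 of 7 called and summed to 100.9 to 108.5 CPM in WT and 145 to 175 CPM in KO mice. The part of epithelial cells, ILC3, NK cells and progenitors in the class II values was not tested. ILC2 genes moved as well, since 7 of 16 tested rose, among them Il13, Icos, Areg and Id2.

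The genes whose pattern was most like that of class II differed between the experiments. Likeness was the Pearson correlation of log2(CPM + 1) with the mean of H2-Aa, H2-Ab1 and H2-Eb1, a description over libraries that share their groups and depth. Over the 12 treatment libraries the 5 most alike were Cgrrf1 (r = 0.87), Bag6, Ccl5, Tmem39b and B4galnt1 (r = 0.83). Without the third rIL-25 library they were Atg5 (r = 0.92), Nlrc5 (r = 0.91), Poc1a, Loh12cr1 and Npm3, with no gene in common. Over the 8 knockout libraries they were Nfkbia, Pxdc1, Lmo4 (r = 0.98 each), H2bc4 and Ltc4s. Cd74 was alike in each, at r = 0.82 over 12 libraries, 0.82 over 11 and 0.83 over 8. Tyrobp had r = 0.19 over 12 libraries, -0.59 over 11 and 0.71 over 8. Lyz2 had r = 0.54, -0.30 and 0.09 in the same order, and Spi1, which was tested in the knockout experiment alone, had 0.57 over 8.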

How the data were processed

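Sorted thymic ILC2 were profiled by MARS-seq, which counts 3′ ends of polyadenylated RNA. For each experiment a table of raw counts, 1 row a gene, was deposited by the authors. The deposited normalized values are a signal on the count scale and, like the deposited log2 values, were not used. The deposited p-values are the authors' own and are printed only where named as such. The submitters' processing notes name bcl2fastq, cutadapt, STAR 2.5.2b, HTSeq, DESeq2 and mm10. The knockout table is named as molecular identifier counts per the labels, which do not state this for the treatment table. The sorting gate is not given in the sources used here.

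Counts were analysed with edgeR 4.0.16 in R 4.3.3. The filter filterByExpr (minimum count 10) left 7482 genes in the treatment and 8812 in the knockout experiment. All 7 members passed in the latter and 6 in the former, where Spi1 did not. A member that passed through 1 high group was more likely to differ. TMM (trimmed means of M-values) set the library scaling, and CPM are after it. Groups were tested with the quasi-likelihood F-test, in 1 fit per experiment, with Benjamini-Hochberg adjustment over all genes tested. Each SE is the fold change on the log2 scale over the root of F. No 2 libraries were duplicates. Intervals cover counting error only.

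The members and gene lists were chosen with earlier results of these data known. The text names all 7 members, up to 4 other genes of a list with the smallest p in a comparison and the 5 genes most alike. It also names Gata3, Il7r, Il1rl1 and Il17rb, and marks others. Chromosome positions are from GENCODE vM21 (GRCm38.p6). Alternatives were RLE scaling (the size factors of DESeq2), no filter, robust empirical Bayes, the replicate number as a block, DESeq2 1.42.0, and each library left out in turn. The procedure was tested on simulated data.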

Additional observations from a re-analysis of the deposited data

Results flagged for a closer look

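Among 14 groups of 4 libraries, 2 had a library far from the other 3, where chance flags about 1 in 20. H2-Ab1 was lowest in Il25 WT replicate 2, at 22.3 CPM, with the other WT libraries between 32.6 and 34.3 CPM. Spi1 was highest in Il25 KO replicate 1, at 13.03 CPM, with the other KO libraries between 8.32 and 8.92 CPM.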

How the results depend on the processing

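With robust empirical Bayes, 1 member instead of 2 was called between both treatments and untreated (Cd74 at adjusted p = 0.188), and 1 instead of 3 between both treatments and rIL-25, where DESeq2 also called 1. The cause was not tested. Leaving out 1 library at a time moved the genes called to 86 to 370 for irradiated, 0 to 3 for rIL-25 and 271 to 896 for both treatments against untreated. It gave 42 to 358 for both treatments against irradiated, 460 to 1318 against rIL-25, 29 to 347 for the interaction and 105 to 174 for the knockout. Members called went to 0 to 2, 0 to 3, 0 to 4, 0 to 0, 1 to 5, 0 to 2 and 1 to 4, in the same order. Such fits hold fewer samples.

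Of the log2 fold changes, 9 turned sign in some fit without 1 library, and their range over these fits was as follows. Lyz2 ranged from -0.83 to 0.086 for irradiated and from -0.78 to 0.36 for both treatments against untreated, from -0.58 to 0.57 for both treatments against irradiated, where DESeq2 gave 0.11, and from -0.11 to 0.059 for the knockout, which was -0.0016 with no filter. H2-Ab1 ranged from -0.15 to 0.27 for both treatments against untreated, and H2-Aa from -0.45 to 0.94 for both treatments against irradiated. Between both treatments and rIL-25, H2-Aa ranged from -2.92 to 1.40, H2-Eb1 from -2.53 to 1.95 and Cd74 from -0.68 to 2.68. In these 3 the highest value is that without rIL-25 replicate 3.

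The replicate numbers were not taken to pair samples over the whole design: 4 of 18 same-numbered pairs in the treatment experiment and 1 of 4 in the knockout experiment had a correlation of deviations over 0.1. Between the rIL-25 and irradiated groups, which are compared only through the interaction, all 3 same-numbered pairs were over 0.1 (0.12, 0.37 and 0.20), a hint from the data of pairing between these groups. With the replicate number as a block edgeR called 325, 0, 679, 212, 1131, 162 and 151 genes in the order above. Under the block H2-Eb1 after both treatments was called (4.02, adjusted p = 0.0457), Lyz2 against rIL-25 was not (0.0693), H2-Ab1 after both treatments went to -0.044 and Cd74 against rIL-25 to 0.55. Of 203 member values from alternatives that kept all libraries, this one included, 192 kept their direction and side of the threshold. DESeq2 gave no adjusted p for H2-Aa and H2-Eb1 in the treatment experiment.

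In untreated libraries 3 counts were worth 3.63 to 4.56 CPM, so H2-Aa, H2-Eb1 and Cd74 levels there rest on few counts.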
